A study of Mus musculus with 13 samples.

Results

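The 42 genes described here encode a selected part of the matrix of the heart other than its collagen chains, together with enzymes that crosslink matrix. They were taken by gene symbol from a list drawn up with earlier results of these data known, and comprise 4 lysyl oxidases, 11 elastic fibre components, 7 small leucine-rich proteoglycans, 13 matricellular proteins, 3 adhesive or large glycoproteins and 4 basement membrane components. The table held 55471 genes, of which 15000 had enough counts to be tested, and all 42 were among these. RNA came from whole hearts of 3 groups of mice: 5 libraries of untreated wild-type mice (WT control), 4 of untreated R502W mice (R502W control) and 4 of R502W mice given mavacamten (R502W mavacamten). R502W is an amino acid change in cardiac myosin-binding protein C, a thick-filament protein of the sarcomere that is encoded by Mybpc3, and mavacamten is a drug that inhibits cardiac myosin. Treated mice took 2.5 mg/kg/day in their drinking water over 21 weeks, and no treated wild-type group was analysed here. Both R502W groups carry the same change, and their zygosity is not stated in the labels. The design text put the mice at 24 weeks of age, whereas the protocol for RNA extraction spoke of 3 and 18 weeks.

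Heart matrix is made mainly by fibroblasts, with vascular and muscle cells adding the basement membranes that surround them. Lysyl oxidases crosslink collagen and elastin in the extracellular space, fibrillin microfibrils carry the elastin of elastic fibres, and small leucine-rich proteoglycans bind collagen fibrils. Matricellular proteins such as thrombospondins and periostin signal to cells rather than bear load, and many of them are known to rise in overloaded or injured hearts. The comparisons ask how the RNAs of these proteins differ between R502W and WT hearts, and between treated and untreated R502W hearts.

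Libraries held 15350622 to 19361103 expected counts and are named by group and replicate number. Levels are given as CPM (counts scaled to library size), in the order of replicate number, and a log2 fold change is given ± its standard error (SE). A gene is said to have risen or fallen where the adjusted p of edgeR's quasi-likelihood test, over all 15000 genes, was under 0.05. Some libraries stood apart in genes that mark neighbouring tissue. Bmp10, an atrial gene, lay between 1.57 and 8.33 CPM in WT control replicate 3, R502W control replicate 1 and R502W mavacamten replicate 3, and between 307 and 672 CPM elsewhere. The 10 atrial markers together did not set these libraries apart in the same way: their sums were 6748, 5616 and 3371 CPM, in groups that ran from 4096 to 8569.5, 4474 to 8666 and 3371 to 6640.3 CPM, and WT control replicate 3 had the highest Sln (456.5 CPM) and Myl7 (1243 CPM) of its group. Adipoq, a fat cell gene, lay between 70.7 and 99.5 CPM in WT control replicates 2 and 3, R502W control replicate 1 and R502W mavacamten replicate 4, and at or below 29.1 CPM elsewhere. WT control replicate 2 also held 94.0 CPM of Rag1, a thymocyte gene. Airway and lung markers summed to 786 and 1266 CPM in WT control replicates 2 and 3, to at most 8.36 CPM in the other WT libraries, to at most 2.42 CPM in R502W control and to as much as 289 CPM in R502W mavacamten, and 4 of the 5 tested were called lower by genotype. Summed markers of heart muscle lay between 60891 and 102451 CPM in the 13 libraries, the level of a muscle-rich tissue. The members were also uneven between replicates: WT control replicate 1 was the lowest of its group in 23 of the 42, R502W control replicate 4 in 28 and R502W mavacamten replicate 3 in 30, while over all genes tested these libraries were lowest in 21.9%, 26.5% and 25.7%.

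In R502W hearts against WT, 9 of the 42 matrix genes rose and 4 fell. The genes that rose were Thbs4 by 1.63 ± 0.32 and Cilp by 1.61 ± 0.32 on the log2 scale, then the perlecan gene Hspg2, the fibrillin gene Fbn1, and Vcan, Emilin1, Lamc1, Lama2 and Loxl2. Efemp1, Mfap2, Thbs2 and Ogn fell. The 13 genes make up 31.0% of the members, beside 12.4% of all genes tested, and the separate shares were 21.4% against 8.63% for genes that rose and 9.52% against 3.75% for genes that fell. The median log2 fold change was 0.22 over the members and -0.009 over all genes. Libraries of the 2 groups did not overlap in 8 higher and 2 lower members, which is 19% and 4.76% beside 12.3% and 5.45% of all genes. At an unadjusted p under 0.05, 22 members passed, or 52.4% against 29.1% of all genes, 16 of them higher and 6 lower, or 38.1% and 14.3% against 17.3% and 11.8% of all genes. Log2 fold changes also moved with gene length: their rank correlation with exonic length, across the 15000 genes, was 0.34, and median exonic length was 8272 bases for the members that rose, 2301 for those that fell, 4778 for the other members and 4288 for all genes. With each library's trend on length removed, 7 members were called, or 16.7% beside 6.55% of all genes: Fbn1, Emilin1, Thbs4, Cilp, Hspg2, Thbs2 and Fbln5. Without the 3 libraries low in Bmp10 there were 4, Fbn1, Thbs4, Cilp and Hspg2, or 9.52% beside 2.68%. Without the 4 high in Adipoq, which include WT control replicates 2 and 3, there were 7, or 16.7% beside 7.72%. Leaving out 1 library gave 5 members without R502W control replicate 1 or 2 (11.9% beside 6.8% and 5.68%), 6 without replicate 3 (14.3% beside 5.99%), 7 without WT control replicate 3 (16.7% beside 9.53%) and 12 without WT control replicate 2 (28.6% beside 12.6%). The part of length, or of the tissue that Bmp10, Adipoq or the airway genes come from, was not tested further.

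**Figure D1:**
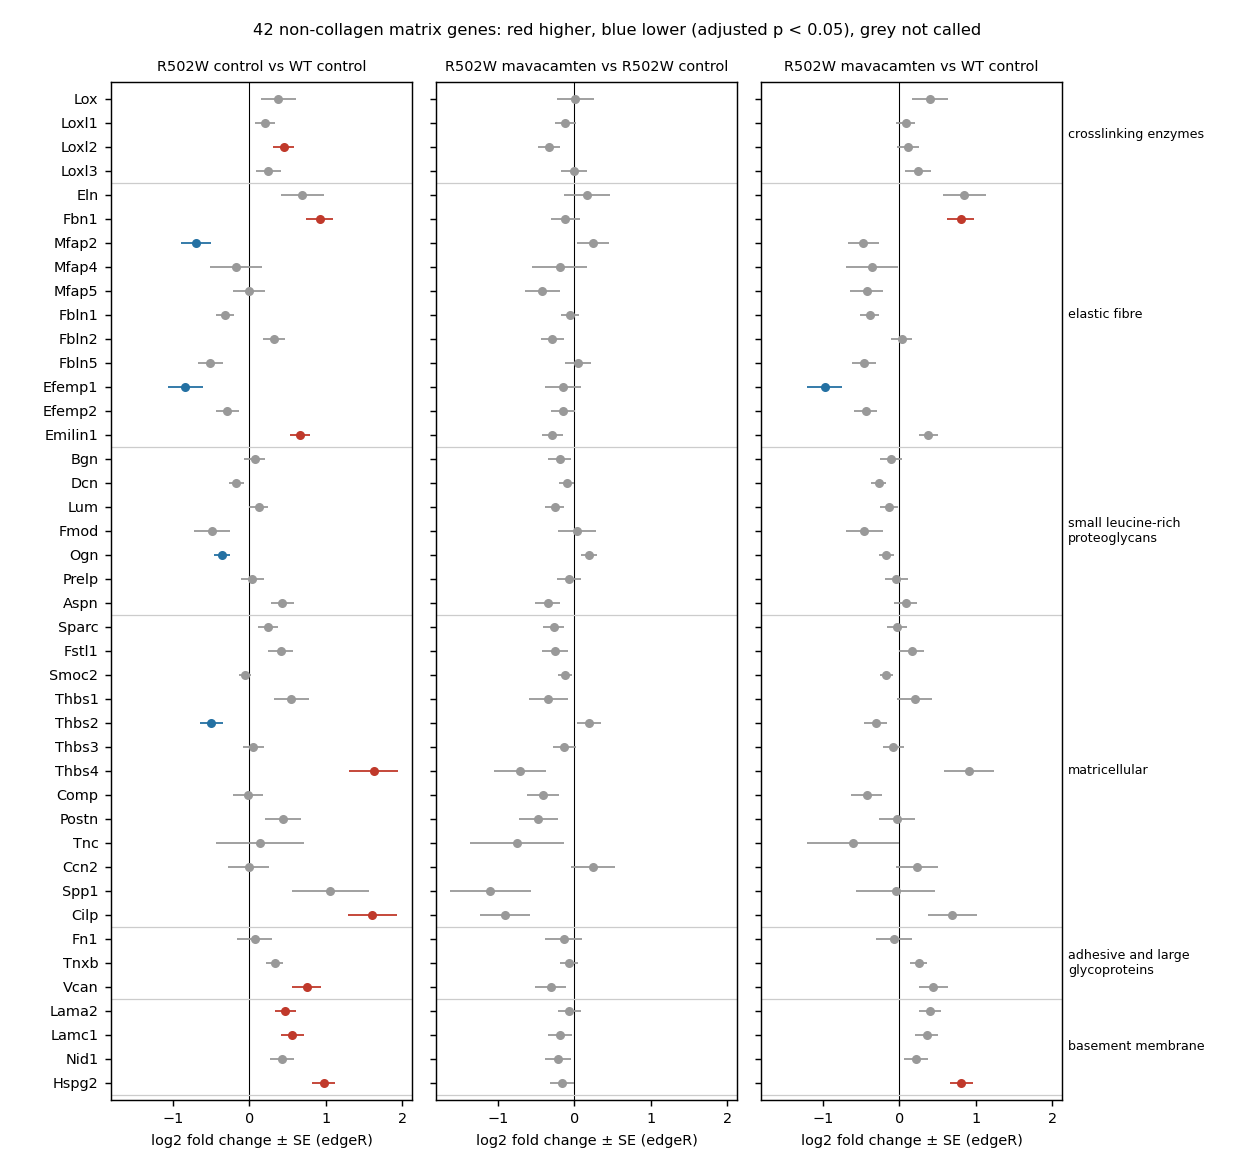
Log2 fold change of each of the 42 genes (points, with bars of 1 SE, edgeR) in the 3 comparisons, ordered by role. Red (higher) and blue (lower) points have an adjusted p under 0.05, and these number 13 in R502W control against WT control, 0 in R502W mavacamten against R502W control and 3 in R502W mavacamten against WT control.

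Among the crosslinking enzymes, 1 of 4 rose and none fell, with a median log2 fold change of 0.32. Loxl2 (ENSMUSG00000034205, chr14:69609068-69695834, plus strand), a lysyl oxidase that acts on type IV as well as fibrillar collagen, was the member that rose. Loxl2 measured 19.2, 14.3, 17.9, 21.4 and 23.3 CPM in the WT control libraries, 25.9, 26.2, 30.4 and 22.5 CPM in R502W control and 23.9, 18.02, 21.95 and 19.4 CPM in R502W mavacamten. Only R502W control replicate 4 lay within the WT range, below WT control replicate 5, and the treated libraries spread across both groups. The log2 fold change of Loxl2 was 0.45 ± 0.14 in the genotype comparison (edgeR adjusted p = 0.0453). That call was near the threshold: it ended on omitting any of WT control 1, 2 and 3, R502W control 1, 2 and 3, R502W mavacamten 1, 2, 3 and 4, with values of 0.33 to 0.53 over the 13 fits that each left out 1 library. Lox measured 4.33, 4.08, 6.46, 6.09 and 6.93 CPM in the WT control libraries, 9.99, 7.50, 6.98 and 4.77 CPM in R502W control and 7.82, 6.63, 5.31 and 9.57 CPM in R502W mavacamten. Lox, the founding lysyl oxidase, overlapped between groups, and its log2 fold change of 0.38 ± 0.23 did not pass (edgeR adjusted p = 0.293). Loxl1, which crosslinks elastin, and Loxl3 did not pass either, at 0.20 ± 0.13 and 0.25 ± 0.17. Loxl1 was the most abundant of the 4 enzymes per exonic length, at 15.7 ± 2.53 RPKM (CPM per kilobase of exon, SD, n = 5) in WT control, and Lox the least, at 1.17 ± 0.27 RPKM. Loxl3 overlaps Htra2 on the opposite strand, which averaged 20.1 CPM, and Loxl2 overlaps Gm27177 at 2.66 CPM; the labels do not say how strand was treated in counting, so whether such pairs share counted reads is not known.

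Elastic fibre genes moved in both directions: 2 of 11 rose, 2 fell, and the median log2 fold change was -0.17. Fbn1 (ENSMUSG00000027204, chr2:125300594-125507993, minus strand), which encodes the fibrillin that forms the microfibril backbone, rose. Fbn1 measured 54.5, 47.4, 97.1, 66.4 and 89.4 CPM in the WT control libraries, 143, 139.8, 142 and 111 CPM in R502W control and 121, 135, 115 and 122 CPM in R502W mavacamten. Every R502W library, treated or not, stood above every WT library. Its log2 fold change against WT was 0.92 ± 0.18 in R502W control (edgeR adjusted p = 0.00603), a call kept in each of the 13 fits that left out 1 library, with values of 0.76 to 1.05. Emilin1 (ENSMUSG00000029163, chr5:30913402-30921277, plus strand), a glycoprotein found where elastin meets microfibrils, rose as well. Emilin1 measured 26.5, 29.4, 25.4, 25.97 and 34.4 CPM in the WT control libraries, 43.5, 42.5, 54.2 and 39.3 CPM in R502W control and 45.1, 36.9, 30.7 and 34.3 CPM in R502W mavacamten. The R502W control libraries all lay above WT, whereas R502W mavacamten replicates 3 and 4 reached into the WT range. The genotype difference in Emilin1 was 0.66 ± 0.13 (edgeR adjusted p = 0.0058), kept in the same 13 fits and lost without the 3 libraries low in Bmp10, at 0.61 with an adjusted p of 0.0516.

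Efemp1 (ENSMUSG00000020467, chr11:28853204-28926743, plus strand) and Mfap2 (ENSMUSG00000060572, chr4:141010418-141015984, plus strand) fell in the same comparison. The first encodes a fibulin of the matrix around elastic fibres, and the second a small glycoprotein that sits on fibrillin microfibrils. Efemp1 measured 29.1, 49.8, 52.9, 50.4 and 35.9 CPM in the WT control libraries, 26.9, 27.6, 19.4 and 24.03 CPM in R502W control and 22.9, 14.4, 17.8 and 33.1 CPM in R502W mavacamten. Each R502W control library lay below each WT library, while R502W mavacamten replicate 4 overlapped WT. The log2 fold change of Efemp1 was -0.84 ± 0.23 (edgeR adjusted p = 0.032), and the call ended on omitting any of WT control 3 and 4, R502W control 1, 2, 3 and 4, with values of -0.74 to -0.97. Summed markers of mesothelium and epicardium, cell layers on the heart surface, lay between 358 and 834 CPM in WT control, 395 and 679 CPM in R502W control and 288 and 760 CPM in R502W mavacamten. None of the 10 markers passed in the genotype comparison, their median log2 fold change was -0.79, and their part in the fall of Efemp1 was not tested. Mfap2 measured 3.67, 5.46, 5.43, 3.83 and 3.84 CPM in the WT control libraries, 2.48, 3.11, 2.25 and 3.06 CPM in R502W control and 3.10, 4.05, 3.26 and 2.49 CPM in R502W mavacamten. WT and R502W control did not overlap, and the treated libraries lay across both. Mfap2 changed by -0.70 ± 0.20 (edgeR adjusted p = 0.0364), which was lost on omitting any of WT control 2 and 3, R502W control 1, 2, 3 and 4, with values of -0.62 to -0.80. It is among the lower-count members, and its largest value was 5.46 CPM.

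Fbln5, a fibulin needed to assemble elastic fibres, came nearest to the threshold among the other elastic fibre genes. Fbln5 measured 36.4, 37.8, 56.1, 50.5 and 56.2 CPM in the WT control libraries, 34.7, 37.2, 30.2 and 31.5 CPM in R502W control and 40.1, 32.7, 24.9 and 40.1 CPM in R502W mavacamten. R502W control replicate 2 lay just inside the WT range and the other 3 untreated R502W libraries below it, and Fbln5 differed by -0.51 ± 0.16 (edgeR adjusted p = 0.0579). Elastin itself, Eln, differed by 0.69 ± 0.28 (edgeR adjusted p = 0.122), with WT libraries between 23.1 and 69.5 CPM and R502W control between 52.1 and 94.7 CPM. Fbln1 and Fbln2, fibulins of vessel walls and valves, gave -0.32 ± 0.12 and 0.32 ± 0.14, and neither passed. Efemp2, Mfap4 and Mfap5 gave -0.29 ± 0.15, -0.17 ± 0.34 and -0.01 ± 0.21. Efemp2 shares its locus with Mus81 on the opposite strand, which averaged 16.4 CPM, and Mfap4 with Mapk7, which averaged 9.81 CPM. The elastic fibre genes thus held both rising and falling members of 1 structure in the main fit: of the microfibril genes, Fbn1 rose and Mfap2 fell. Their exonic lengths are 12128 and 1211 bases. With the length trend removed Fbn1 kept its call, at 0.69 ± 0.15 (edgeR adjusted p = 0.013). Mfap2 and Efemp1 lost theirs, at -0.53 ± 0.19 and -0.70 ± 0.20 (edgeR adjusted p = 0.116 and 0.0534), while Fbln5 was called. Without the libraries high in Adipoq, Mfap2 gave -0.45 ± 0.21 (edgeR adjusted p = 0.214).

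Small leucine-rich proteoglycans included the most abundant member per length: by genotype none of 7 rose and 1 fell, with a median log2 fold change of 0.04. Decorin (Dcn), which coats collagen fibrils, had the highest level per length of all 42 genes in WT control, at 118 ± 12.6 RPKM, and its lowest WT library exceeded the highest WT library of the next gene, Sparc, at 79.1 ± 13.6 RPKM. Biglycan (Bgn), a close relative of decorin, followed at 57.7 ± 10.4 RPKM, then osteoglycin (Ogn) at 44.9 ± 6.70 RPKM. From Sparc downwards no neighbours in this order of WT levels separated, since their library ranges overlapped in 40 of the 41 neighbouring pairs. Ogn (ENSMUSG00000021390, chr13:49608046-49624501, plus strand), a secreted proteoglycan of collagen-rich tissue, was the member that fell. Ogn measured 117, 88.8, 111, 135 and 124 CPM in the WT control libraries, 89.1, 87.5, 96.2 and 86.1 CPM in R502W control and 93.3, 103, 102 and 111 CPM in R502W mavacamten. R502W control lay below 4 of the 5 WT libraries, and WT control replicate 2 sat among the R502W control values. The difference in Ogn was -0.36 ± 0.10 (edgeR adjusted p = 0.0375), lost on omitting any of WT control 1, 3, 4 and 5, R502W control 1, 2, 3 and 4, with values of -0.30 to -0.48. Aspn measured 16.6, 14.4, 20.04, 17.5 and 21.2 CPM in the WT control libraries, 23.5, 24.1, 27.9 and 21.2 CPM in R502W control and 23.6, 19.8, 18.98 and 13.6 CPM in R502W mavacamten. Aspn, asporin, had the smallest p among the uncalled members of this role, at 0.43 ± 0.15 (edgeR adjusted p = 0.0747), and its groups met at 21.2 CPM. Dcn, Bgn, Lum, Prelp and Fmod gave -0.17 ± 0.10, 0.07 ± 0.14, 0.12 ± 0.12, 0.04 ± 0.15 and -0.49 ± 0.24, and none passed. Aspn overlaps Cenpp on the opposite strand, which averaged 1.22 CPM.

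Matricellular genes held the members with the highest fold changes: of 13, 2 rose and 1 fell, and the median log2 fold change was 0.24. Thbs4 (ENSMUSG00000021702, chr13:92751590-92794818, minus strand) encodes a thrombospondin known from stressed heart muscle, and Cilp (ENSMUSG00000042254, chr9:65265180-65280605, plus strand) a secreted protein of cartilage and of activated heart fibroblasts. The 250 bases upstream of their start sites, and of the start site of Efemp1, are shown because the first pair had the largest rises and Efemp1 the largest fall by genotype. They are RefSeq windows on GRCm38.p6, read 5′ to 3′ on the strand of the gene, and cover chr13:92794819-92795068 for Thbs4 (minus strand), chr9:65264930-65265179 for Cilp (plus strand) and chr11:28852955-28853204 for Efemp1 (plus strand). Capitals mark matches to the motifs searched on both strands.
Thbs4: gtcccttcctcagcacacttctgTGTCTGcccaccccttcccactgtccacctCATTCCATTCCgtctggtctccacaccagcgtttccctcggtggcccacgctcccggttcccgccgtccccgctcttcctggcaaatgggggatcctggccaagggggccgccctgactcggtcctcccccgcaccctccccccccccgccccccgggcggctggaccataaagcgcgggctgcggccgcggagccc
Cilp: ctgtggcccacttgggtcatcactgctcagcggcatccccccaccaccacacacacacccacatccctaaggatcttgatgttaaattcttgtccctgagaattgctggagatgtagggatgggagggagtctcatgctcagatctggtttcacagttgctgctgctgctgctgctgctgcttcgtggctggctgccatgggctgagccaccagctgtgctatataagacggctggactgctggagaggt
Efemp1: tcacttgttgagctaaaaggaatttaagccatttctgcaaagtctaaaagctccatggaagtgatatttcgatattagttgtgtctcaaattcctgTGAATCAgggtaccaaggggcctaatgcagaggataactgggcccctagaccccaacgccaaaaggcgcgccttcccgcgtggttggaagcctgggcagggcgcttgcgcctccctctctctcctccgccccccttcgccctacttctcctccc

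The motifs searched were AP-1 (TGANTCA), TEAD (GGAATG), SMAD (CAGACA), an E-box (CACGTG) and a TATA box (TATAAA), and windows were found for 27 of the 42 members. Capitals in Thbs4 are 1 SMAD match, whose first base lies 227 bases upstream of the start, and 2 TEAD matches, at 197 and 192 bases, all as the reverse complement. Capitals in Efemp1 are 1 AP-1 match at 154 bases. Cilp held no match to any of the 5 strings in its window. Variant forms were not searched, so the tatataag close to the Cilp start site was not counted as a TATA box. Over the 27 members, AP-1 matched in 7.4%, TEAD in 11.1%, SMAD in 22.2%, the E-box in 3.7% and the TATA box in 18.5% of windows, beside 6.9%, 12.6%, 17.1%, 6.0% and 13% of all 27025 windows. Each share over the members rests on at most 6 genes.

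Thbs4 measured 7.11, 6.84, 6.16, 8.55 and 8.95 CPM in the WT control libraries, 23.7, 19.2, 26.3 and 23.8 CPM in R502W control and 25.2, 13.1, 4.32 and 13.95 CPM in R502W mavacamten. All 4 R502W control libraries exceeded all WT libraries, and the treated libraries ran from below the WT range (replicate 3) to within the R502W control range (replicate 1). The log2 fold change of Thbs4 by genotype was 1.63 ± 0.32 (edgeR adjusted p = 0.0069), with means of 7.52 ± 1.18 CPM (SD, n = 5) in WT control and 23.2 ± 2.98 CPM (SD, n = 4) in R502W control. It held in the 13 fits that left out 1 library and was lost without the 4 libraries high in Adipoq, at 1.46 with an adjusted p of 0.0575. Cilp measured 17.7, 12, 20.5, 16.2 and 30.9 CPM in the WT control libraries, 52.2, 50.2, 88.2 and 46.1 CPM in R502W control and 47.7, 32.95, 14.2 and 30.7 CPM in R502W mavacamten. Cilp separated the untreated groups in the same way, and R502W control replicate 3 stood above the rest of its group. Its difference was 1.61 ± 0.32 (edgeR adjusted p = 0.0066), with values of 1.35 to 1.84 over the fits that left out 1 library, and none of the 21 alternatives ended the call. Markers of valve, tendon and cartilage, where Cilp, Thbs4, Comp and Fmod are also made, summed to 70.7 to 117 CPM in WT control, 47.3 to 89.9 CPM in R502W control and 54.2 to 88.3 CPM in R502W mavacamten. Of the 7 tested markers only Sox9 passed by genotype, at 0.79 ± 0.18 (edgeR adjusted p = 0.0117), and the median log2 fold change was -0.39. Chad, Wif1, Cilp2 and Cytl1 went the other way without passing, at -1.80 ± 0.61, -0.75 ± 0.23, -0.46 ± 0.32 and -0.39 ± 0.23. Scx and Acan gave 0.77 ± 0.24 and 0.11 ± 0.52, also without passing. Matn1 was at 0 in 12 of the 13 libraries.

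Thbs2 (ENSMUSG00000023885, chr17:14665500-14694235, minus strand), a thrombospondin that limits vessel growth and matrix breakdown, fell. Thbs2 measured 43.3, 25.1, 42.9, 45.2 and 41.3 CPM in the WT control libraries, 24.3, 26.8, 31.1 and 29.6 CPM in R502W control and 33.7, 32.8, 27.5 and 33.3 CPM in R502W mavacamten. WT control replicate 2 lay within the R502W control range and the other WT libraries above it. The change was -0.50 ± 0.15 (edgeR adjusted p = 0.0417), lost on omitting any of WT control 1, 3, 4 and 5, R502W control 1, 2, 3 and 4, R502W mavacamten 2, with values of -0.44 to -0.66. The thrombospondin genes thus went in different directions, with Thbs4 up, Thbs2 down, and Thbs1, Thbs3 and Comp not passing at 0.55 ± 0.23, 0.05 ± 0.14 and -0.02 ± 0.20. Thbs3 overlaps Mtx1 on the opposite strand, which averaged 13.9 CPM. Fstl1 measured 72.2, 80.9, 123, 99.6 and 116 CPM in the WT control libraries, 139, 146, 135 and 102 CPM in R502W control and 128, 101, 89.3 and 119.8 CPM in R502W mavacamten. Fstl1, a secreted follistatin-like glycoprotein, had the smallest p among the uncalled members of this role and gave 0.41 ± 0.16 (edgeR adjusted p = 0.116). Its group ranges overlapped through R502W control replicate 4. Widely used markers of matrix remodelling did not pass: Postn, made by activated fibroblasts, gave 0.44 ± 0.24 (edgeR adjusted p = 0.244), and Ccn2, a growth factor target, -0.01 ± 0.27 (edgeR adjusted p = 0.99). Spp1, osteopontin, lay between 0.839 and 1.51 CPM in WT control and between 1.66 and 2.87 CPM in R502W control without overlap, and its difference of 1.06 ± 0.50 did not pass (edgeR adjusted p = 0.18). At such levels Spp1 rests on few counts. Tnc, tenascin-C, was the member with the lowest level per length in WT control (0.419 ± 0.447 RPKM) and gave 0.14 ± 0.58. Sparc and Smoc2, related calcium-binding proteins, gave 0.24 ± 0.13 and -0.06 ± 0.08.

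Of the 3 adhesive and large glycoproteins, 1 rose and none fell. Vcan (ENSMUSG00000021614, chr13:89655312-89742509, minus strand) encodes versican, a large proteoglycan that binds hyaluronan. Vcan measured 15.7, 13.02, 25.6, 23.2 and 20.4 CPM in the WT control libraries, 39.2, 38.02, 29.3 and 25.3 CPM in R502W control and 26.6, 31.6, 22.6 and 25.4 CPM in R502W mavacamten. The highest WT library, replicate 3, just exceeded the lowest R502W control library, replicate 4. Versican RNA differed by 0.75 ± 0.19 (edgeR adjusted p = 0.0215), and the call ended on omitting any of WT control 1, R502W control 1 and 2, with values of 0.60 to 0.86. Tnxb measured 119, 127, 144, 148 and 179 CPM in the WT control libraries, 183, 185, 202 and 149 CPM in R502W control and 174, 166, 166 and 177 CPM in R502W mavacamten. Tnxb, tenascin-X, which ties collagen fibrils together, overlapped between the groups through WT control replicate 5 and R502W control replicate 4, at 0.33 ± 0.11 (edgeR adjusted p = 0.0761). Fibronectin (Fn1), on which other matrix proteins assemble, gave 0.07 ± 0.23 and spread from 67.4 to 179 CPM within WT control alone.

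In the basement membrane, 3 of 4 genes rose and none fell, with a median log2 fold change of 0.51. Hspg2 (ENSMUSG00000028763, chr4:137468769-137570630, plus strand) encodes perlecan, the heparan sulphate proteoglycan of basement membranes. Hspg2 measured 441, 321, 419.5, 457 and 570.2 CPM in the WT control libraries, 848, 835, 1050.0 and 727 CPM in R502W control and 731, 832, 884 and 651 CPM in R502W mavacamten. All 8 R502W libraries stood above all 5 WT libraries. The difference between R502W control and WT was 0.97 ± 0.15 (edgeR adjusted p = 0.00177), the smallest p of the 42 members, and none of the 21 alternatives ended it. Lamc1 (ENSMUSG00000026478, chr1:153218922-153332786, minus strand) and Lama2 (ENSMUSG00000019899, chr10:26980036-27619758, minus strand) encode the laminin γ1 chain and the α2 chain of the muscle basement membrane. Lamc1 measured 170.0, 113, 194, 191 and 215 CPM in the WT control libraries, 276, 250.1, 282 and 232 CPM in R502W control and 239, 226, 249 and 195 CPM in R502W mavacamten. Lama2 measured 109, 74.7, 100.3, 124 and 124 CPM in the WT control libraries, 147, 141, 168 and 133 CPM in R502W control and 124, 157, 154 and 125 CPM in R502W mavacamten. Both separated the untreated groups completely. For Lama2 the treated libraries too lay above WT, but only just, with a lowest value of 124.4 CPM against a highest WT value of 124.0 CPM. Lama2 was not called in treated R502W against WT (0.40 ± 0.14, edgeR adjusted p = 0.0914). Lamc1 differed by 0.56 ± 0.15 (edgeR adjusted p = 0.0284) and lost its call on omitting any of WT control 1, R502W control 1, 2 and 3, R502W mavacamten 2, with values of 0.40 to 0.64. Lama2 differed by 0.47 ± 0.14 (edgeR adjusted p = 0.0403) and lost its call on omitting any of WT control 1 and 3, R502W control 1, 2, 3 and 4, R502W mavacamten 1, 2, 3 and 4, with values of 0.33 to 0.53. With the length trend removed, only Hspg2 of the 4 stayed called, at 0.70 ± 0.14 (edgeR adjusted p = 0.00859). Lamc1 then gave 0.42 ± 0.13 and Lama2 0.17 ± 0.11 (edgeR adjusted p = 0.0722 and 0.363). Nid1 measured 115, 80.9, 148, 133 and 163 CPM in the WT control libraries, 179, 166, 202 and 145 CPM in R502W control and 144, 147, 157 and 149 CPM in R502W mavacamten. Nid1, nidogen-1, which links laminin to type IV collagen, overlapped through R502W control replicate 4 and gave 0.43 ± 0.16 (edgeR adjusted p = 0.0914). Summed endothelial markers lay between 1189 and 1413 CPM in WT control and between 1553 and 1842 CPM in R502W control, with no overlap. In R502W mavacamten they were 1589, 1708, 1632 and 1251 CPM, and only replicate 4 lay within the WT range. Of the 12 markers 4 rose, Kdr by 0.73 ± 0.15, Cldn5 by 0.70 ± 0.15, Flt1 by 0.65 ± 0.15 and Vwf by 0.52 ± 0.15, while Pecam1 and Cdh5 gave 0.19 ± 0.08 and 0.41 ± 0.14 without passing. Esam and Egfl7 went the other way without passing, at -0.15 ± 0.08 and -0.06 ± 0.08, and the median over the 12 was 0.33. The part of endothelial cells in the basement membrane result was not tested. In bulk RNA more cells of a type and more RNA per cell cannot be told apart.

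**Figure D2:**
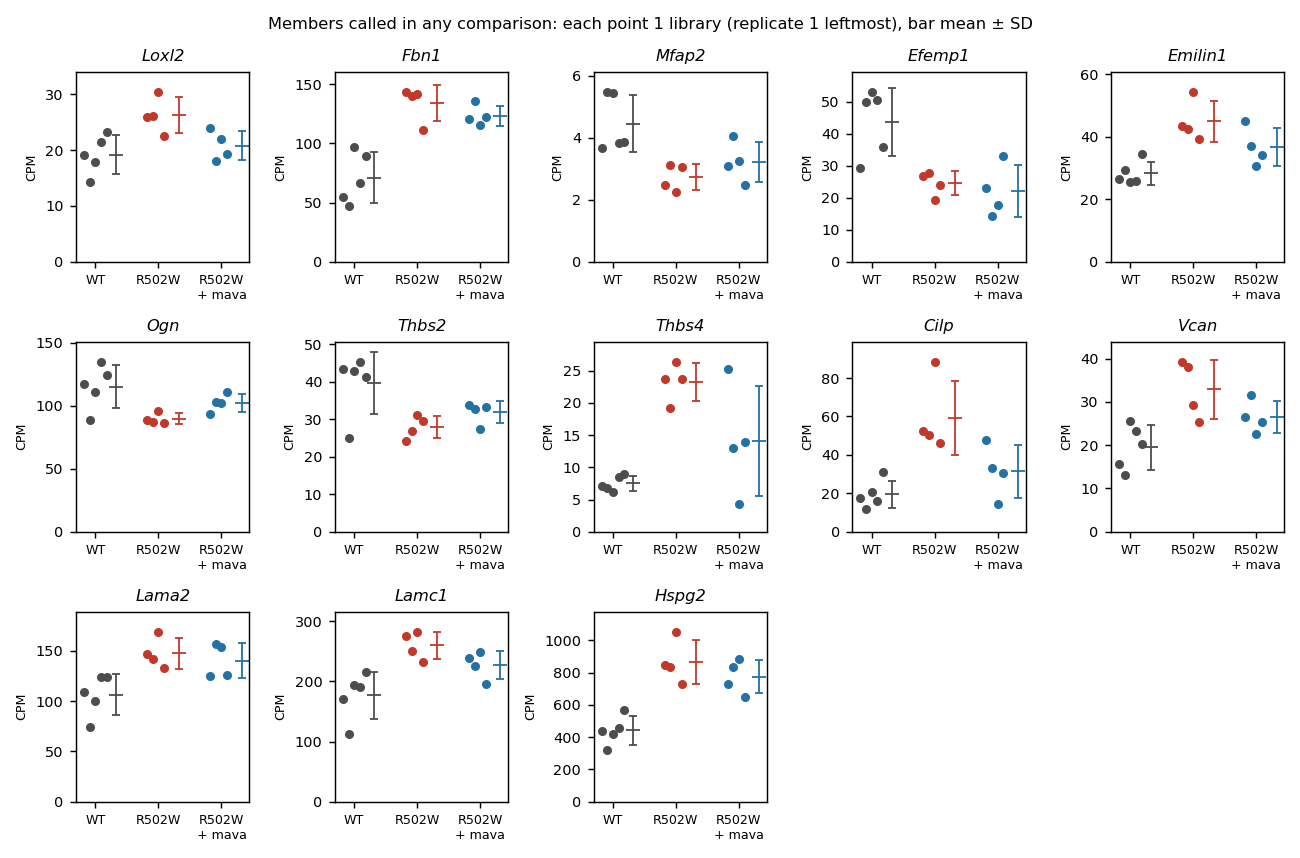
Level in CPM of each of the 13 genes called by genotype, 1 panel a gene, with 1 point per library (replicate 1 leftmost) and mean ± SD per group; axes start at 0. R502W control lies wholly above WT control in Fbn1, Emilin1, Thbs4, Cilp, Lama2, Lamc1 and Hspg2 and wholly below it in Mfap2 and Efemp1.

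In R502W hearts given mavacamten against untreated R502W hearts, none of the 42 matrix genes changed at an adjusted p under 0.05, beside 0.0% of all genes tested. DESeq2 also called 0 of the 42, and 6 of the 15000 genes. At an unadjusted p under 0.05 in DESeq2 there were 6 members and 490 genes. The median log2 fold change was -0.16 over the members and 0.004 over all genes. At an unadjusted p under 0.05 in edgeR, 3 members were lower and 0 higher, which is 7.14% and 0.0% beside 1.7% and 1.8% of all genes (3.5% in either direction). They were Cilp at -0.91 ± 0.33 (unadjusted p = 0.0165), Loxl2 at -0.33 ± 0.14 (unadjusted p = 0.0356) and Aspn at -0.35 ± 0.16 (unadjusted p = 0.044), each with an edgeR adjusted p of 1. In none of the 42 genes did the treated libraries lie wholly above or below the R502W control libraries, beside 1.29% and 1.58% of all genes. Cilp averaged 59.2 ± 19.5 CPM (SD, n = 4) untreated and 31.4 ± 13.7 CPM (SD, n = 4) treated, and treated replicate 1 exceeded the lowest untreated library. Without R502W control replicate 3 or R502W mavacamten replicate 3, its log2 fold change was -0.65 and -0.66. Thbs4 averaged 23.2 ± 2.98 and 14.1 ± 8.57 CPM (SD, n = 4 each), a difference of -0.71 ± 0.34 (unadjusted p = 0.0534). The treated libraries of Thbs4 spanned 4.32 to 25.2 CPM, and its difference was -0.40 without treated replicate 3 and -1.14 without treated replicate 1.

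The other genes that rose by genotype gave treatment differences of -0.29 ± 0.14 for Emilin1, -0.31 ± 0.20 for Vcan, -0.19 ± 0.16 for Lamc1, -0.16 ± 0.16 for Hspg2, -0.12 ± 0.19 for Fbn1 and -0.07 ± 0.15 for Lama2. Those that fell gave 0.24 ± 0.21 for Mfap2, 0.19 ± 0.11 for Ogn, 0.19 ± 0.16 for Thbs2 and -0.15 ± 0.24 for Efemp1. The genotype and treatment comparisons share the R502W control libraries, so a chance deviation there moves both in opposite directions, and the values are set side by side only. The uncalled fibroblast activation gene Postn gave -0.47 ± 0.25 and Spp1 -1.10 ± 0.53, the lowest value among the members, with treated libraries from 0.212 to 2.53 CPM. That value for Spp1 was -0.76 without treated replicate 3 and -2.04 without treated replicate 1. R502W mavacamten replicate 1 was the highest of its group in 25 of the 42 members and replicate 3 the lowest in 30. By role, the medians ran from -0.34 in the matricellular genes to -0.06 in the crosslinking enzymes, with -0.18 in the basement membrane genes.

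**Figure D3:**
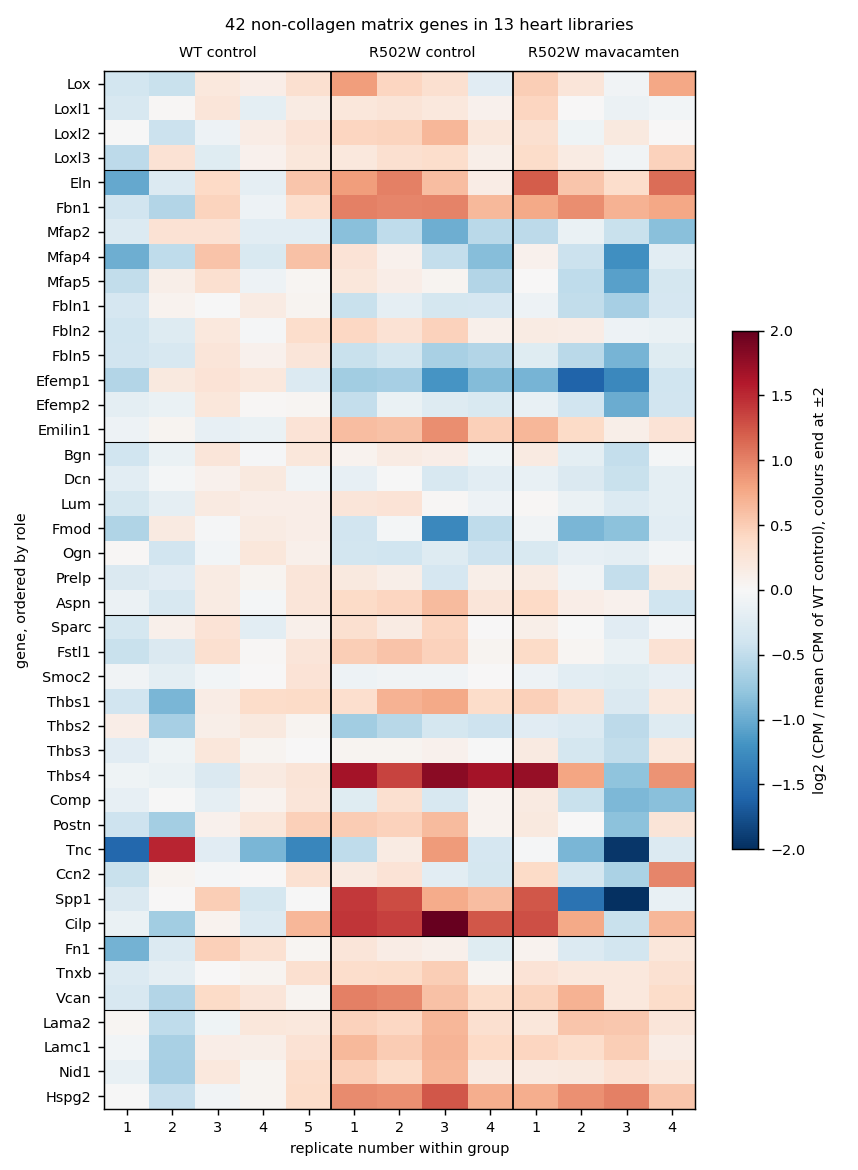
Level of the 42 genes (rows, by role) in the 13 libraries (columns, by group), as log2 of CPM over the mean CPM of WT control, with red above and blue below that mean. Within R502W mavacamten, replicate 3 is the lowest library in 30 genes and replicate 1 the highest in 25.

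Treated R502W hearts differed from WT in 3 of the 42 genes, or 7.14% beside 8.21% of all genes tested. Hspg2 and Fbn1 were higher and Efemp1 was lower, which is 4.76% and 2.38% beside 5.93% and 2.29% of all genes. Their log2 fold changes were 0.81 ± 0.15 for Hspg2 (edgeR adjusted p = 0.00979), 0.80 ± 0.18 for Fbn1 (edgeR adjusted p = 0.0198) and -0.98 ± 0.23 for Efemp1 (edgeR adjusted p = 0.0247). Hspg2 averaged 442 ± 89.3 CPM (SD, n = 5) in WT control, 865 ± 135 CPM (SD, n = 4) in R502W control and 775 ± 104 CPM (SD, n = 4) in R502W mavacamten. Fbn1 averaged 71 ± 21.6, 134 ± 15.3 and 123 ± 8.63 CPM in the same order. Efemp1 averaged 43.6 ± 10.5, 24.4 ± 3.72 and 22 ± 8.17 CPM. Hspg2 kept its call in the 13 fits that left out 1 library, Fbn1 lost it without R502W mavacamten replicate 2 (0.73, edgeR adjusted p = 0.0695), and Efemp1 lost it on omitting any of WT control 3, R502W mavacamten 2 and 3 (values of -0.84 to -1.28). With the trend on exonic length removed Hspg2 and Fbn1 were no longer called, at 0.54 ± 0.14 and 0.57 ± 0.15 (edgeR adjusted p = 0.0506 for each). That fit called 2.88% of all genes. Without the libraries low in Bmp10 none of the 3 was called, beside 0.57% of all genes. Hspg2, Fbn1 and Efemp1 then gave 0.71 ± 0.19, 0.95 ± 0.19 and -0.82 ± 0.27 (edgeR adjusted p = 0.103, 0.057 and 0.158). The count of called members was 1 without R502W mavacamten replicate 2 (2.38% beside 2.35% of all genes), 5 without WT control replicate 2 or 5 (11.9% beside 8.15% and 7.3%) and 6 without R502W mavacamten replicate 1 (14.3% beside 4.48%). Fbn1, Lama2 and Hspg2 lay above WT in every treated library, which is 7.14% of the members beside 8.54% of all genes, and no member lay below WT in all of them, beside 3.79%. Lama2 cleared the highest WT library only narrowly and was not called. Thbs4 and Cilp, the largest by genotype, gave 0.91 ± 0.33 (edgeR adjusted p = 0.0997) and 0.69 ± 0.32 (edgeR adjusted p = 0.188) here. Of the fits that left out 1 library, Thbs4 passed only in the one without treated replicate 3, at 1.20 (edgeR adjusted p = 0.0145), and DESeq2 called it with all libraries. The median over the members was -0.03, against 0.002 over all genes, and at an unadjusted p under 0.05 there were 10 higher and 6 lower members, or 23.8% and 14.3% beside 16% and 9.85% of all genes (38.1% beside 25.8% in either direction). This comparison shares its WT libraries with the genotype comparison and its treated libraries with the treatment comparison, and a gene called in 1 of them only is not thereby shown to differ between them.

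Other genes of the same pathways, taken from fixed lists, were counted beside the members, and over all genes tested 8.63% rose and 3.75% fell by genotype. Among 14 other basement membrane genes, 7 rose and none fell by genotype, among them the type IV collagen chains Col4a1 (1.09 ± 0.13) and Col4a2 (0.96 ± 0.12). The type IV collagen RNAs reached 227 ± 36.3 CPM (SD, n = 5) in WT control and 483 ± 52.1 CPM (SD, n = 4) in R502W control for Col4a1, and the whole list summed to 1149.5 to 1656 CPM against 2029 to 2502 CPM. Among 23 matrix receptors, 6 rose and none fell, with the integrin chains Itga9 (1.11 ± 0.15), Itga6 (0.67 ± 0.15) and Itga5 (0.40 ± 0.08) named by their adjusted p. Enzymes that process and fold collagen held both directions, with 5 of 17 higher and 2 lower. The prolyl hydroxylase subunits P4ha1 (0.77 ± 0.11) and P4ha2 (0.61 ± 0.12) and the collagen chaperone Serpinh1 (0.66 ± 0.10) were among the higher ones. Of 38 other non-collagen matrix genes 4 rose and 1 fell, and Spon2 (1.91 ± 0.28), Ccn1 (1.10 ± 0.17) and Svep1 (1.08 ± 0.24) had the smallest adjusted p. Spon2 is a secreted spondin, Ccn1 a matricellular relative of Ccn2, and Svep1 a large adhesive protein. Of 21 genes of the TGF-beta axis, which drives matrix genes in fibroblasts, only the ligand Tgfb2 passed, at 0.72 ± 0.19 (edgeR adjusted p = 0.0283). The treatment comparison called 0 genes in each of these lists. Treated R502W against WT called 6 basement membrane genes and 4 receptors higher, 2 processing enzymes higher and 2 lower, 3 other matrix genes higher and 0 genes of the TGF-beta axis, beside 5.93% higher and 2.29% lower over all genes.

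Markers of the cells that make matrix gave a mixed picture. Summed fibroblast markers lay between 2281 and 2977 CPM in WT control, 2306 and 2793 CPM in R502W control and 2081 and 2720.2 CPM in R502W mavacamten, so the 3 ranges overlapped. Of 13 tested fibroblast markers 2 rose by genotype, Col15a1 at 0.96 ± 0.16 and Meox1 at 1.02 ± 0.22, and the median was -0.06. Col15a1 is also a basement membrane collagen and is counted in that list too, and Meox1 is known from activated fibroblasts. Mural cell markers held 2 of 12 and macrophage markers 1 of 14 that rose, and 0 of either list fell. Over all genes tested, 8.63% rose and 3.75% fell. Log2 fold changes by genotype ran from -1.03 to 0.66 in the mural list and from -0.54 to 0.94 in the macrophage list. The medians were 0.17 and -0.03. The part of any of these cells in the members' differences was not tested.

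**Figure D4:**
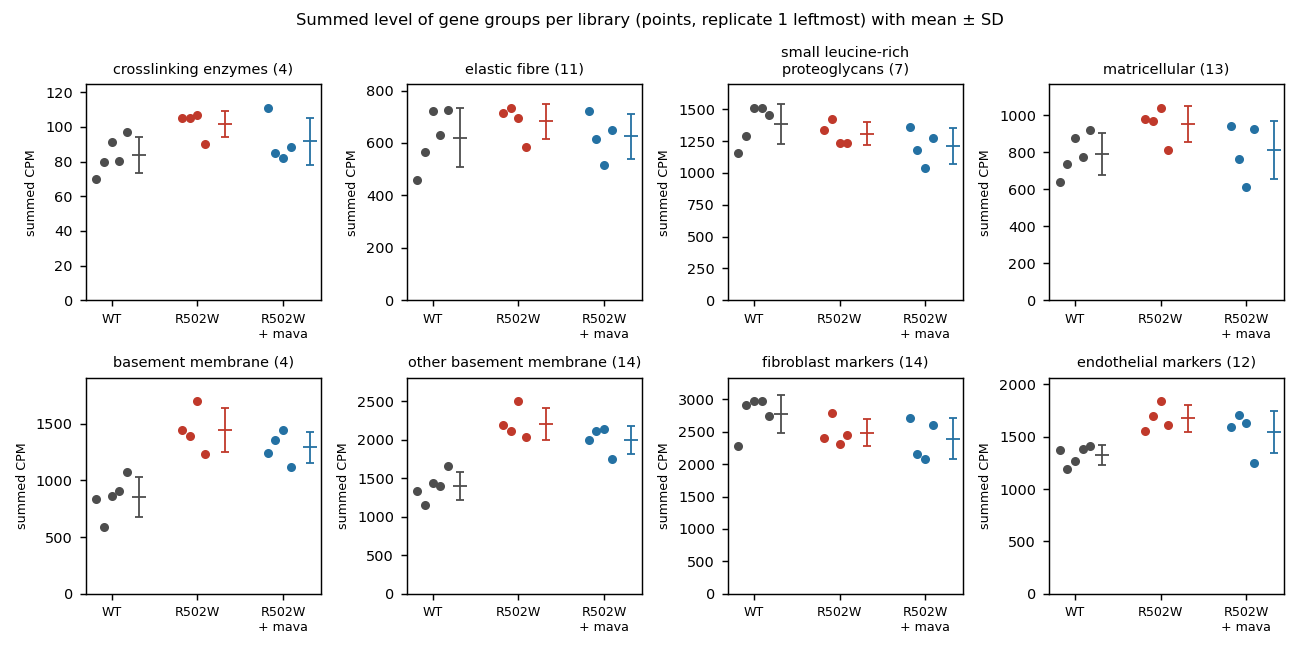
Summed CPM per library (points, replicate 1 leftmost) with mean ± SD for 5 of the member roles, the other basement membrane genes and the fibroblast and endothelial markers; numbers in brackets count the genes and axes start at 0. The basement membrane sums separate R502W control from WT control, and the fibroblast sums overlap in all 3 groups.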

How the data were processed

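The strand-specific libraries were poly(A)-selected, per the labels' protocols. The authors deposited expected counts per gene, which their processing notes credit to RSEM, as 1 table of 13 columns and 0 others. Cutadapt, FastQC, DESeq2 and GRCm38 appear in the same notes, and the deposited file is named for Ensembl release 99. No aligner is named in the labels. Of the values, 5.8% were fractional.

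Expected counts were rounded. In edgeR 4.0.16 (R 4.3.3), genes were filtered by filterByExpr (minimum count 10, minimum total 15), libraries scaled by TMM, and all 13 fitted by quasi-likelihood with a mean for each group (biological coefficient of variation 0.232). The 3 contrasts were adjusted by Benjamini-Hochberg over 15000 genes at 0.05. CPM used TMM-scaled sizes, and RPKM the exonic length of GENCODE M21. Libraries held 15350622 to 19361103 counts, which limits precision for genes of low CPM. The labels do not state separate mice, so the spread behind each p may be technical. Within groups, chi-square per degree of freedom was 7.31 to 103 over 22 pairs, so no library was a plain resequencing of another. These values cannot tell separate mice from separate preparations of the same heart.

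Members, lists and tests were chosen with earlier results of these data known. Library values are given for members called in any comparison and, per role, for the uncalled member with the smallest p by genotype, and up to 3 genes name each pathway list. A gene that this rule names is not reported here. Other genes were named after their values were seen. Motifs were searched in the untranscribed 250 bases of the RefSeq windows. Alternatives were RLE factors, no filter, DESeq2 1.42.0, 2-group fits, a replicate block, removal of a length trend (a spline of 5 degrees of freedom), omission of 3 libraries low in Bmp10 and omission of each library. Omission of 4 libraries with Adipoq above 50 CPM was chosen after seeing the data. The edgeR fit was tested on simulated counts with known changes in single genes.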

Additional observations from a re-analysis of the deposited data

Results flagged for a closer look

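In 5 of the 126 combinations of member and group, the highest or lowest library lay further from the rest than Dixon's 95% limit allows, and chance flags about 1 in 20. Fbn1 in R502W control replicate 4 was 111.1 CPM, with the other libraries of its group between 139.8 and 143.1 CPM. Cilp in R502W control replicate 3 was 88.2 CPM, with the others between 46.1 and 52.2 CPM. Thbs2 was lowest in WT control replicate 2, at 25.1 CPM against 41.3 to 45.2 CPM, and in R502W mavacamten replicate 3, at 27.5 CPM against 32.8 to 33.7 CPM. Tnc was highest in WT control replicate 2, at 9.36 CPM against 1.10 to 2.78 CPM, and that library also held 94.0 CPM of the thymocyte gene Rag1 and 99.5 CPM of the fat cell gene Adipoq. Whether these go together was not tested.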

How the results depend on the processing

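Of the 42 members, 13 were called in the genotype comparison, and this number was 11 with RLE factors, 8 with no low-count filter, 15 with DESeq2, 8 with only the 2 groups compared, 7 with the length trend removed, 4 without the libraries low in Bmp10 and 7 without those high in Adipoq. Leaving out 1 library at a time gave 5 to 13, or 11.9% to 31.0%, beside 5.68% to 12.6% of all genes. In treated R502W against WT, 3 were called (7.14% beside 8.21%), with 3 under RLE factors (beside 7.21%) and with no low-count filter (beside 2.79%). DESeq2 called 9 (21.4% beside 12.3%), and the fit of only the 2 groups compared called 1 (2.38% beside 1.47%). There was 1 with the length trend removed (2.38% beside 2.88%) and 0 without the libraries low in Bmp10 (beside 0.57%). There were 5 without those high in Adipoq (11.9% beside 4.4%). With 1 library left out there were 1 to 6, or 2.38% to 14.3%, beside 2.35% to 8.15%. The treatment comparison called 0 members in each of these settings. Over all genes the genotype count of 1856 ran from 404 to 2503 over the alternatives, that of treated R502W against WT, 1232, from 86 to 1840, and that of treatment, 0, from 0 to 6. No called member changed direction in any setting. Fbn1, Cilp and Hspg2 kept their genotype call in all 21 alternatives.

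The replicate numbers of the labels did not pair the libraries: correlations of the deviations of same-numbered libraries ran from -0.323 to 0.253. With the replicate block, 7 members were called by genotype, or 16.7% beside 6.42% of all genes. It called 0 members by treatment, beside 0.0%, and 2 in treated R502W against WT, or 4.76% beside 2.33%. The cause of the differences between settings was not tested.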
